A study of Homo sapiens with 26 samples.

Results

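Of the 41078 genes in the deposited table, a chosen list of 40 that encode lysosomal enzymes, lysosomal membrane proteins and proteins that sort or control them is described here by mRNA level across 26 single cell-derived cell lines (SCDCLs) of pancreatic ductal adenocarcinoma. The members were taken as a list of symbols matched by Ensembl identifier, and each of the 40 was found. SCDCLs were grown from 1 cell each out of BxPC3, a classical-like line, and Panc-1, a basal-like line, and both were cultured in the same serum-containing medium. RNA of each SCDCL was sequenced once, and the labels give 12 libraries as BxPC3 and 14 as Panc-1. Every library carries gemcitabine as its treatment label, whereas the methods describe the drug for separate viability assays only. Each library is 1 clone, so p-values measure the spread between clones and no clone was repeated.

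The libraries were split by the TPM (a transcript's share of the library, scaled per transcript length) of SMAD4, a mediator of TGF-beta signaling that is deleted in BxPC3. SMAD4 (ENSG00000141646, GRCh38 chromosome 18, 51028528 to 51085045) lay between 0 and 0.0440 TPM in 12 libraries, here SMAD4-low, and between 28.1 and 52.2 TPM in 14, here SMAD4-high. The SMAD4-low set holds 7 libraries labelled Panc-1 (numbers 1 to 7) and 5 labelled BxPC3 (numbers 16, 21, 24, 25 and 26). The SMAD4-high set holds 7 libraries labelled Panc-1 (numbers 8 to 14) and 7 labelled BxPC3. SMAD4 thus goes against the label of 7 libraries of each label, so labels are given as "the libraries labelled BxPC3" and no library was moved. The split is made on a measured gene, and a difference between the sets is a difference between these libraries in everything that separates them. Total estimated counts ranged from 27035724 to 34945608 per library, with a median of 29623513. Of 6 epithelial markers, all had a median of at least 1 TPM in both sets, but levels differed. EPCAM ranged from 239 to 424 TPM in the SMAD4-low and from 7.49 to 25.5 TPM in the SMAD4-high set. CDH1 ranged from 90.8 to 198 and from 0.338 to 7.74 TPM. KRT7 was at least 1376 TPM in the SMAD4-low and at most 40.99 TPM in the SMAD4-high set. KRT8 and KRT18 went the other way, up to 781 and 757 against 4005 and 2732 TPM, and they and KRT19 overlapped. VIM, outside these lists, ranged from 1.42 to 73.2 and from 3047 to 4526 TPM. Of 7 macrophage and leucocyte markers, 1 had a median of at least 1 TPM in each set, CD14 in the SMAD4-low and ITGAM in the SMAD4-high set. PTPRC reached at most 0.535 TPM in the SMAD4-low and 0.229 TPM in the SMAD4-high set and TYROBP at most 0.169 and 0.336 TPM, whereas CD14 reached 29.1 and 3.34 TPM and ITGAM 4.12 and 3.45 TPM. ITGAM was under 1 TPM in most SMAD4-low libraries and over 1 TPM in most SMAD4-high libraries. Of 6 fibroblast markers, 2 had a median of at least 1 TPM in each set, COL1A1 and PDGFRA in the SMAD4-low and COL1A1 and PDGFRB in the SMAD4-high set. DCN reached at most 1.07 and 0.351 TPM and LUM 0.124 and 0.243 TPM, whereas COL1A1 ranged from 8.92 to 26.5 TPM in the SMAD4-low and from 2.06 to 38.5 TPM in the SMAD4-high set, and PDGFRA from 4.20 to 21.9 and from 0 to 0.713 TPM. PDGFRB went the other way, from 0 to 0.423 TPM in the SMAD4-low and from 0.335 to 3.47 TPM in the SMAD4-high set.

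Lysosomes degrade proteins, glycans and lipids with acid hydrolases, most of which reach the organelle through mannose 6-phosphate receptors or other sorting receptors. Several sphingolipid hydrolases need small activator proteins, the saposins A to D, which cathepsin D and other proteases release from 1 precursor, prosaposin, encoded by PSAP. Many lysosomal genes share the CLEAR element, an E-box to which TFEB and TFE3 of the MiT/TFE family bind. PSAP is not a member. It was listed at 0 estimated counts in each SMAD4-low library, and the members were examined for whether they were lower together with it or higher in its place.

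The E-box CACGTG and its longer forms were searched on both strands in the 250 bases before the RefSeq start of each gene (GRCh38.p14), for genes with 1 such window. Of 40 members, 25 had 1 window, 7 had more than 1 and were not searched, and 8 had none in the table used. CACGTG was present in 7 of 25 members, namely CTSA, CTSD, CTSF, LAMP1, MCOLN1, GAA and NEU1, and in 6.34% of 22114 genes. The 8-letter core TCACGTGA, which contains CACGTG, was present in 4 of 25 members and in 0.877% of genes. The related M-box TCATGTGA, or TCACATGA on the other strand, was present in 2 of 25 members and in 0.913% of genes. The 6 members with an 8-letter match are shown because they include genes that were higher, lower and near 0 in the comparison that follows. They are written 5′ to 3′ on the strand of the gene with each match in capitals.
CTSA (chr20:45891298-45891327, plus strand): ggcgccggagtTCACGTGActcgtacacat
LAMP1 (chr13:113297195-113297232, plus strand): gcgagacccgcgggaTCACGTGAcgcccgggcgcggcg
MCOLN1 (chr19:7522567-7522623, plus strand): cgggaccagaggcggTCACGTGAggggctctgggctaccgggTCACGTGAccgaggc
GAA (chr17:80101489-80101526, plus strand): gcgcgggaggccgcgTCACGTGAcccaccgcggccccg
TPP1 (chr11:6619423-6619452, minus strand): atatagagcTCATGTGAtccgTCACATGAc
GRN (chr17:44345064-44345117, plus strand): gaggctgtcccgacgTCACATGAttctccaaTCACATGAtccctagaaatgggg
GAA holds another TCACGTGA nearer its start, which is not shown. The windows of CTSA and TPP1 meet exons of some GENCODE 44 transcripts, and the others lie before the annotated exons of their gene. A match is a description of letters, and binding was not measured.

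Between the SMAD4 sets, lysosomal genes differed in both directions. A member was called higher or lower in the SMAD4-low set when edgeR's quasi-likelihood test passed at an adjusted p of 0.05 and the log2 fold change was over 1 in size. Of 39 members that passed the filter on low counts, 9 were higher (CTSS, GRN, ASAH1, GLB1, FUCA1, CTSL, CTSZ, GALC and LAMP1) and 8 were lower (CTSF, IDS, TPP1, TFEB, CTSD, ARSB, NEU1 and ARSA). CTSO, a cysteine cathepsin, was listed at 0 in most libraries, reached at most 1.25 TPM and was not tested. The same rule called 39.0% of 16008 genes, of which 20% were higher and 19% lower, so the members' share of 43.6% was near that of all genes. TPM did not overlap between the sets for 8 members, 7 of them higher in the SMAD4-low set, beside 30.0% of all genes (14.6% higher and 15.4% lower). The median log2 fold change was 0.016 over the members and -0.012 over all genes, and the median absolute log2 fold change was 0.99 over the members and 0.74 over all genes. By the adjusted p alone, 17 members were higher, 13 were lower and 9 did not pass, beside 76.7% of all genes that passed.

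**Figure D1:**
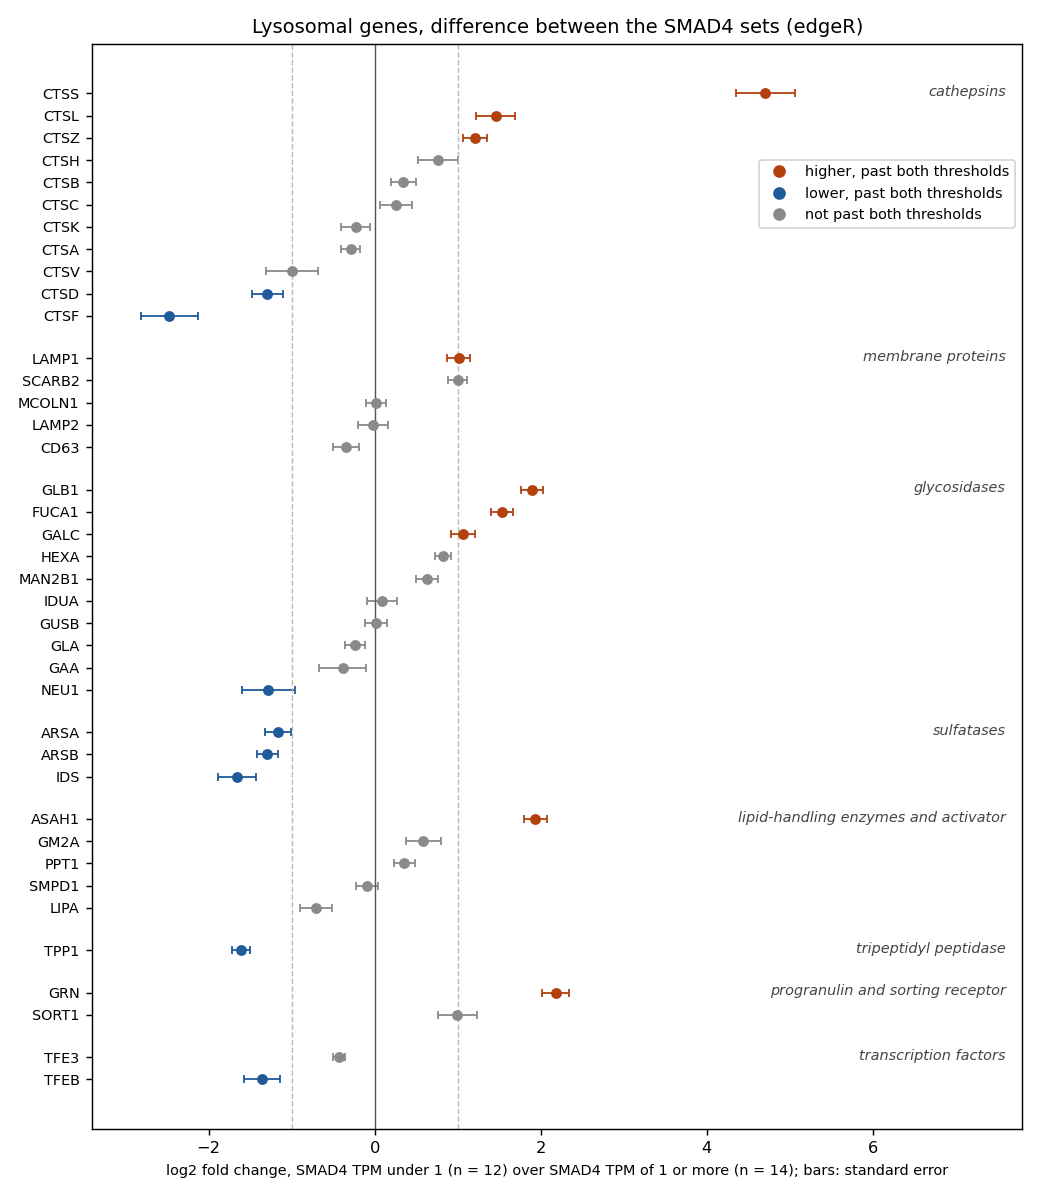
Log2 fold change of each tested member, SMAD4-low (n = 12) over SMAD4-high (n = 14), with bars of 1 standard error from edgeR and members grouped by role. Red points were called higher, blue points lower and grey points neither; dashed lines mark the fold threshold, and CTSS stands farthest to the right at 4.70.

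PSAP (ENSG00000197746, chromosome 10, 71816298 to 71851251) separated the sets completely. Its level was 1196 TPM at the lowest, 1893 TPM at the median and 3588 TPM at the highest in the SMAD4-high set, from 57573 to 157578 estimated counts per library. Every SMAD4-low library was at 0. With a floor of 3 counts per library, its CPM was at least 29105-fold below the mean CPM of the SMAD4-high set, a limit that covers counting error only. The counts are estimates made after reads were assigned to transcripts, and whether a 0 is absent RNA or reads that were not assigned to the gene cannot be told from them. Each library is also a bulk culture. For a gene with counts in both sets, fewer expressing cells and less RNA per cell therefore cannot be told apart.

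The enzymes that use saposins did not follow PSAP as a group. GALC, the galactosylceramidase that saposin A assists, was 21.9 TPM at the lowest, 33.5 at the median and 46.3 at the highest in the SMAD4-low set, against 7.42, 15.4 and 26.3 TPM in the SMAD4-high set. The ranges overlapped, with libraries 4 and 14 highest in their sets, and GALC was called higher in the SMAD4-low set with a log2 fold change of 1.07 (SE 0.15, adjusted p 2.1e-07). It fell just under the fold threshold without library 4 (0.999) and stood at 0.78 in the libraries labelled Panc-1 alone (adjusted p 0.0018, edgeR). ASAH1, the acid ceramidase that saposin D assists, was 65.4, 99.3 and 131 TPM (lowest, median and highest, as in all such triplets here) in the SMAD4-low set and 18.1, 24.9 and 43.4 TPM in the SMAD4-high set. Every SMAD4-low library lay above every SMAD4-high library, and the log2 fold change was 1.93 (SE 0.14, adjusted p 4.2e-13). ARSA, the arylsulfatase that degrades sulfatide with saposin B, went the other way. Its level was 7.84, 16.03 and 30.9 TPM in the SMAD4-low set and 20.8, 37.1 and 59.6 TPM in the SMAD4-high set, and it was called lower at -1.16 (SE 0.16, adjusted p 2.3e-07). Overlap came from libraries 4 and 22, at the top of the SMAD4-low and the bottom of the SMAD4-high range. In the libraries labelled BxPC3 alone the log2 fold change of ARSA was -0.94 (adjusted p 0.00036, edgeR), under the fold threshold.

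GLA, the alpha-galactosidase that also works with saposin B, was 75.9, 98.6 and 171 TPM in the SMAD4-low set and 102, 124 and 207 TPM in the SMAD4-high set. Its log2 fold change of -0.23 (SE 0.12) did not pass the test (adjusted p 0.069, edgeR). SMPD1, an acid sphingomyelinase with a saposin domain of its own, did not pass either, with 23.4, 39.3 and 52.3 TPM against 30.5, 39.9 and 61.4 TPM and a log2 fold change of -0.092 (SE 0.13). The 2 medians nearly coincided, and the ranges overlapped widely. GM2A, the activator that presents ganglioside GM2 to hexosaminidase A and is not made from PSAP, was 18.7, 40.9 and 98.4 TPM against 20.3, 32.1 and 40.6 TPM. Library 26 stood highest for GM2A, and the log2 fold change of 0.59 (SE 0.21, adjusted p 0.012) did not reach the fold threshold, which it did in the libraries labelled BxPC3 alone (1.01).

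**Figure D2:**
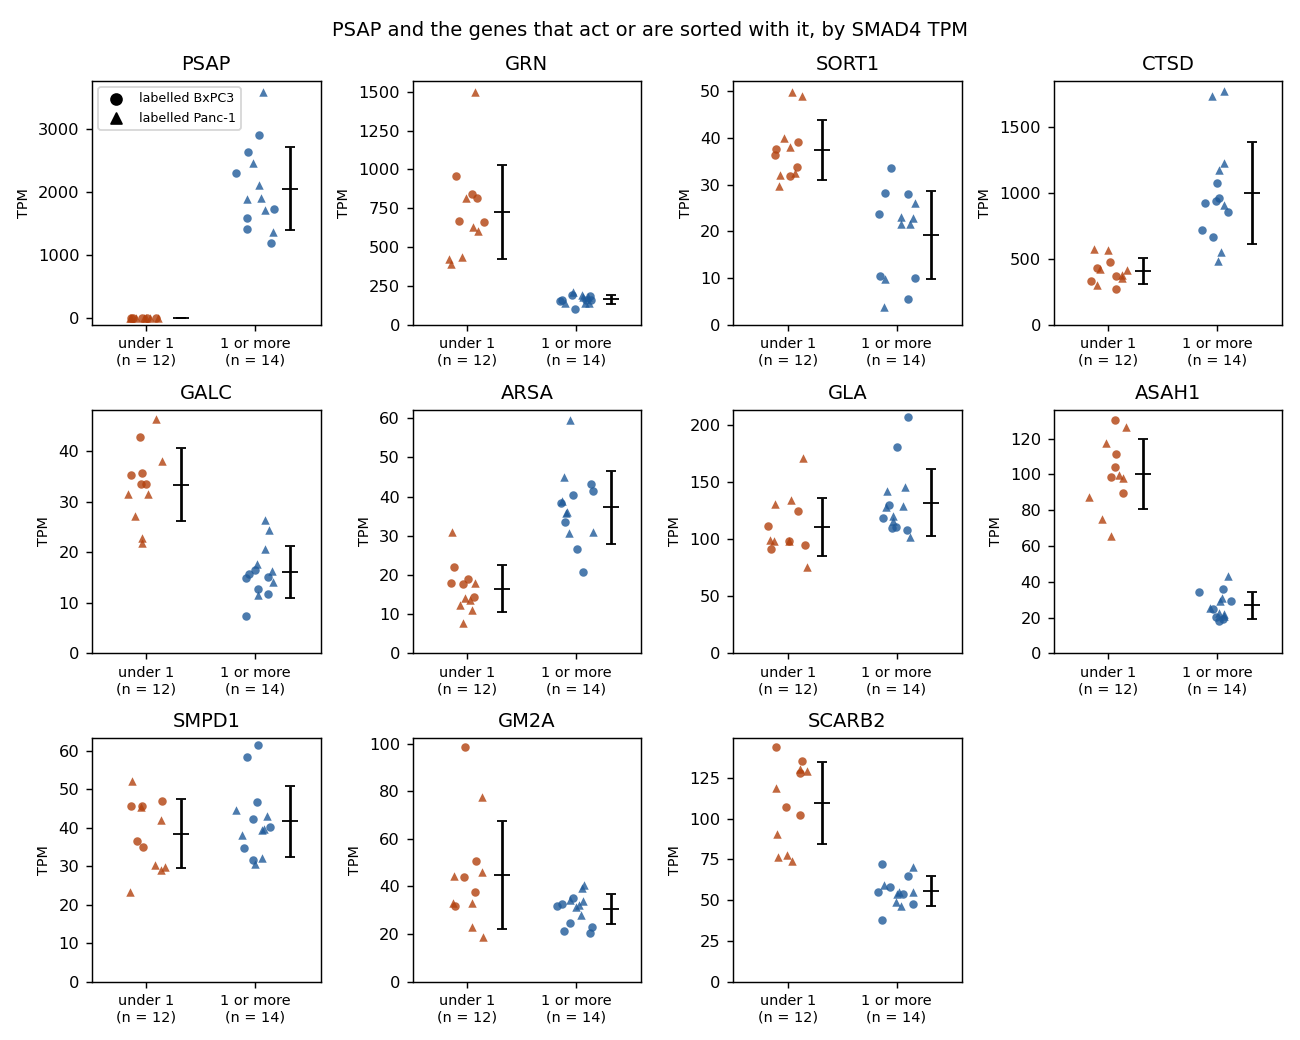
TPM of PSAP and 10 genes that act, are processed or are sorted with it, 1 point per library, by SMAD4 set and label, with mean and SD at the right of each set. PSAP is at 0 in the 12 SMAD4-low libraries, GRN and ASAH1 lie higher there without overlap, CTSD and ARSA lie lower with overlap, and GLA and SMPD1 overlap widely.

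Progranulin, a secreted growth factor that binds prosaposin and is cleaved to granulins in lysosomes, had the largest mRNA level of all members in the SMAD4-low set. GRN (ENSG00000030582, chromosome 17, 44345246 to 44353106) was 389, 665 and 1499 TPM in the SMAD4-low set and 99.4, 161 and 213 TPM in the SMAD4-high set. No SMAD4-high library reached the lowest SMAD4-low library, and library 4 was highest. The log2 fold change was 2.18 (SE 0.17, adjusted p 2.2e-12). GRN ranked 1 of 40 by mean TPM in the SMAD4-low set and 10 in the SMAD4-high set. SORT1 encodes sortilin, a receptor that carries both progranulin and prosaposin. It was 29.8, 37.0 and 49.9 TPM in the SMAD4-low set and 3.83, 22.2 and 33.6 TPM in the SMAD4-high set, where libraries 9, 11, 15, 18 and 22 lay between 3.83 and 10.5 TPM. Its log2 fold change of 0.99 (SE 0.23, adjusted p 0.0004) was just under the fold threshold, and 5 of 9 alternatives put it over. SCARB2 encodes LIMP-2, a membrane protein that also serves as a sorting receptor, and was 74.0, 113 and 144 TPM against 37.8, 54.9 and 72.1 TPM. The sets did not overlap, although the log2 fold change of 0.999 (SE 0.11, adjusted p 6.5e-09) missed the fold threshold, which 5 of 9 alternatives passed.

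The other tested genes of the saposin axis outside the members were LRP1, TMEM106B and GPR37, and PSAPL1 and GPR37L1 did not pass the filter on low counts. LRP1, an endocytic receptor that takes up the prosaposin and progranulin complex, was 9.09 to 28.9 TPM in the SMAD4-low set and 0.896 to 4.20 TPM in the SMAD4-high set (log2 fold change 3.25, SE 0.23, called higher). TMEM106B, a lysosomal membrane protein known as a genetic modifier of progranulin deficiency, was 38.2 to 80.0 TPM against 133 to 276 TPM (log2 fold change -1.93, SE 0.13, called lower). Neither gene overlapped between the sets. GPR37, a receptor proposed to bind prosaposin, was called higher but passed the filter through the SMAD4-low set, where it was higher, and did not exceed 1.16 TPM in any library.

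Cathepsins, the proteases of the lysosome, were called higher for 3 of 11 tested and lower for 2. The share called was 45.5%, near the 39.0% of all genes. CTSS (ENSG00000163131, chromosome 1, 150730079 to 150765957), a cysteine protease best known from antigen-presenting cells, was 30.0, 66.3 and 129 TPM in the SMAD4-low set and 0.645, 1.88 and 8.42 TPM in the SMAD4-high set. The sets did not overlap, and the log2 fold change of 4.70 (SE 0.36, adjusted p 1.6e-12) was the largest of the 39 in either direction. By comparison, the summed TPM of 7 macrophage and leucocyte markers was 1.18 to 31.0 in the SMAD4-low set and 0.650 to 6.30 in the SMAD4-high set. CD14 had the highest level of that list, at most 29.1 TPM, while PTPRC and TYROBP were near 0 in both sets. ITGAM was under 1 TPM in most SMAD4-low libraries and over 1 TPM in most SMAD4-high libraries. The part of these markers in the level of CTSS was not tested. CTSL, an endopeptidase of broad specificity, was 66.6, 164 and 450.2 TPM against 39.9, 69.3 and 107 TPM, with overlap through libraries 3, 5 and 6 of the SMAD4-low set (log2 fold change 1.46, SE 0.24, adjusted p 3.3e-06). CTSZ, a carboxypeptidase, was 318, 382 and 680.4 TPM against 99.9, 172 and 277 TPM, without overlap (log2 fold change 1.21, SE 0.15, adjusted p 2.5e-08).

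CTSD (ENSG00000117984, chromosome 11, 1752752 to 1764573), the aspartic protease that takes part in cleaving prosaposin, was lower in the SMAD4-low set. It was 270.1, 399 and 578 TPM there and 487, 932 and 1776 TPM in the SMAD4-high set, where libraries 9 and 12 were highest. The ranges overlapped, since libraries 3 and 5 of the SMAD4-low set lay above libraries 10 and 13 of the SMAD4-high set. The log2 fold change was -1.29 (SE 0.19, adjusted p 4e-07), and CTSD ranked 1 of 40 by mean TPM in the SMAD4-high set and 4 in the SMAD4-low set. CTSF, a cysteine cathepsin, was 0.684, 3.70 and 15.5 TPM against 10.9, 26.3 and 45.0 TPM (log2 fold change -2.47, SE 0.34, adjusted p 2.2e-07). Library 16 was highest in the SMAD4-low set and library 22 lowest in the SMAD4-high set, which made the ranges overlap. CTSV, a close relative of CTSL, reached 107 TPM in library 20 and 50.1 TPM in library 17, while the median of the SMAD4-high set was 19.3 TPM. Its log2 fold change of -0.99 (SE 0.31, adjusted p 0.0057) was just under the fold threshold, and without library 20 it was -0.62. CTSH, an aminopeptidase, had a log2 fold change of 0.76 and CTSB, an abundant cysteine cathepsin, of 0.35, and both passed the adjusted p alone. CTSA, the protective protein that holds GLB1 and NEU1 in a complex, was at -0.29. CTSC, which activates granule proteases, and CTSK, a collagen-degrading enzyme at no more than 4.75 TPM, did not pass the test.

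Glycosidases, which remove sugars from glycolipids, glycoproteins and glycosaminoglycans, were called higher for 3 of 10 and lower for 1. That share of 40% was near the 39.0% of all genes. GLB1 (ENSG00000170266, chromosome 3, 32996609 to 33097202), the acid beta-galactosidase, was 68.8, 108 and 140.5 TPM in the SMAD4-low set and 17.5, 28.7 and 48.6 TPM in the SMAD4-high set. The sets did not overlap (log2 fold change 1.89, SE 0.14, adjusted p 5.4e-13). FUCA1, the alpha-fucosidase, did not overlap either, with 49.4, 65.8 and 89.8 TPM against 13.3, 22.6 and 32.6 TPM (log2 fold change 1.54, SE 0.13). NEU1, a sialidase of the same complex as GLB1, was called lower. Its level was 2.84, 5.44 and 10.9 TPM in the SMAD4-low set and 2.62, 14.9 and 32.7 TPM in the SMAD4-high set, which spanned the whole range of the former because library 15 lay lowest of all (log2 fold change -1.28, SE 0.32, adjusted p 0.00064). The call was lost in the libraries labelled BxPC3 alone, where the log2 fold change was -0.94 (adjusted p 0.099, edgeR). Of the partners in the complex, GLB1 was thus called higher and NEU1 lower, and CTSA passed the adjusted p at less than the fold threshold. HEXA, the alpha subunit of hexosaminidase A, passed the adjusted p at a log2 fold change of 0.83 (SE 0.10), and MAN2B1, an alpha-mannosidase, at 0.63 (SE 0.13). GAA, which breaks down glycogen, was at -0.39 (SE 0.29, adjusted p 0.22, edgeR) and ranged from 4.58 to 46.8 TPM within the SMAD4-low set alone. GUSB, a glucuronidase, and IDUA, an iduronidase, had log2 fold changes of 0.015 and 0.084 and did not pass.

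Sulfatases were lower in the SMAD4-low set for all 3 members. Beside ARSA, IDS (ENSG00000010404, chromosome X, 149476988 to 149521096), which removes sulfate from iduronate in dermatan and heparan sulfate, was 16.7, 34.5 and 57.5 TPM against 48.0, 91.0 and 175 TPM. Library 7 of the SMAD4-low set lay above the lowest SMAD4-high library, number 20, and the log2 fold change was -1.65 (SE 0.23, adjusted p 2.5e-07). IDS has a related copy, as has GUSB, so the division of reads among such copies is uncertain. ARSB, which removes sulfate from N-acetylgalactosamine, was 5.73, 6.72 and 10.5 TPM against 9.07, 17.8 and 23.6 TPM (log2 fold change -1.29, SE 0.12, adjusted p 1.6e-10). The ranges met through library 16 in the SMAD4-low and library 19 in the SMAD4-high set. GALNS, the sulfatase in the list of other hydrolases, was called lower as well, at 5.74 to 19.6 TPM against 45.8 to 85.4 TPM (log2 fold change -2.27, SE 0.18).

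TPP1 (ENSG00000166340, chromosome 11, 6612768 to 6619448), a tripeptidyl peptidase, was the only member that lay lower in every SMAD4-low library than in any SMAD4-high library. It was 35.3, 45.8 and 59.5 TPM against 67.6, 138 and 202 TPM (log2 fold change -1.60, SE 0.11, adjusted p 8.8e-14). TPP1 and GRN, which both hold M-box matches in the windows printed above, thus differed in opposite directions. Among the lipid-handling enzymes other than those named, LIPA, the acid lipase for cholesteryl esters, passed the adjusted p at -0.70 (SE 0.19), and PPT1, which removes palmitate from proteins, at 0.36 (SE 0.12).

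Of 5 lysosomal membrane proteins, 1 was called higher and none lower, a share of 20% beside 39.0% of all genes. LAMP1, an abundant glycoprotein of the limiting membrane, was 313, 371 and 502 TPM in the SMAD4-low set and 104, 179 and 337 TPM in the SMAD4-high set. Library 12 was the one SMAD4-high library above the lowest SMAD4-low library, number 26. LAMP1 was called higher at a log2 fold change of 1.01 (SE 0.13, adjusted p 1.1e-07), which lay at the fold threshold and dropped under it in 3 of 9 alternatives and in 10 of 26 fits with 1 library left out, to 0.955 at the lowest. LAMP2, its relative that also serves chaperone-mediated autophagy, was 174, 304 and 597 TPM against 255, 333 and 659 TPM and did not pass (log2 fold change -0.021, SE 0.18). MCOLN1, a cation channel, did not pass at 0.016 (SE 0.12), and CD63, a tetraspanin shared with exosomes, passed the adjusted p only, at -0.35 (SE 0.15, adjusted p 0.043). LAMP1 and MCOLN1, which both hold TCACGTGA, were thus on different sides of the threshold.

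Of the MiT/TFE factors among the members, TFEB was called lower in the SMAD4-low set. It was 0.745, 1.12 and 2.28 TPM there and 1.23, 3.24 and 4.89 TPM in the SMAD4-high set, a log2 fold change of -1.35 (SE 0.22, adjusted p 2.4e-06). Library 20 was lowest among the SMAD4-high libraries and overlapped with the SMAD4-low range. In the libraries labelled BxPC3 alone the difference was -0.71 (adjusted p 0.075, edgeR), and in those labelled Panc-1 alone -1.91. TFE3, the related factor, was more abundant at 18.6, 23.1 and 26.1 TPM against 24.4, 31.3 and 37.5 TPM, and passed the adjusted p but not the fold (log2 fold change -0.43, SE 0.067, adjusted p 1.6e-06). mRNA levels say nothing of the location of these factors, which move to the nucleus when mTORC1 is inactive.

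**Figure D3:**
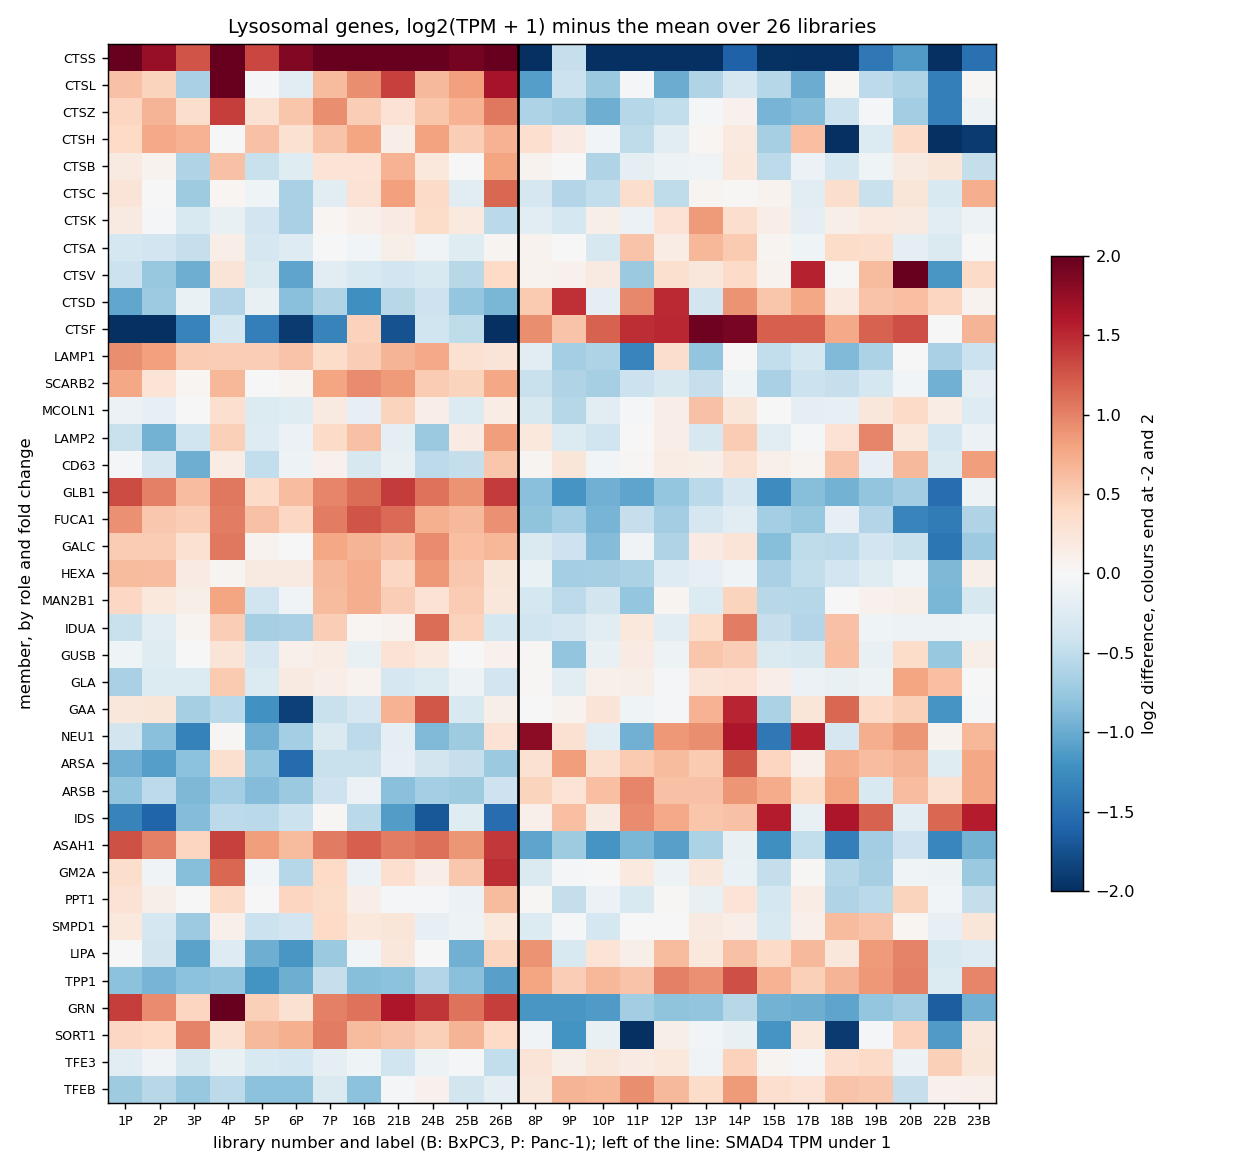
Level of each tested member in each library as log2(TPM + 1) minus its mean over 26 libraries, with SMAD4-low libraries left and SMAD4-high libraries right of the line. CTSS, GRN, ASAH1, GLB1 and FUCA1 are red throughout the left block, TPP1 is blue throughout it, and most rows show clones that differ within a block.

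Other genes of the lysosome, taken from lists written with the members, were called in both directions. Of 24 other hydrolases tested, 4 were called higher and 2 lower, and of 24 other membrane proteins and transporters, 4 were higher and 6 lower. The shares called were 25% and 41.7%, beside 39.0% of all genes. Among the hydrolases, HYAL1 (a hyaluronidase, log2 fold change 3.18), MANBA (beta-mannosidase, 2.03) and PLD3 (a lysosomal exonuclease, 1.04) had the largest positive differences, and CTBS, a chitobiase, was lower at -1.75. HYAL1 was 0.779 to 2.01 TPM in the SMAD4-low set and 0 to 0.564 TPM in the SMAD4-high set. Like GPR37, HYAL1 passed the filter on low counts through the SMAD4-low set, where it was higher. Among membrane proteins, LAPTM5 was 232 to 705 TPM in the SMAD4-low set and 0.0978 to 5.12 TPM in the SMAD4-high set (log2 fold change 8.48, SE 0.43). LAPTM5 is known mainly from leucocytes. Of the leucocyte list, PTPRC and TYROBP were near 0 in both sets and CD14 was higher in the SMAD4-low set (log2 fold change 3.21). ITGAM went the other way, under 1 TPM in most SMAD4-low and over 1 TPM in most SMAD4-high libraries. The part of these markers in the level of LAPTM5 was not tested. LITAF, a protein of late endosomes, and TMEM192 were higher at 3.19 and 1.33. The channel TPCN1, the scavenger receptor CD68 and the peptide transporter ABCB9 were lower at -2.57, -2.39 and -2.18, each without overlap.

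Acidification and sorting genes were called in both directions. Of 21 tested subunits of the V-ATPase, the proton pump of lysosomes, ATP6AP2 was called higher (1.10) and ATP6V1E2 (-1.94) and ATP6V0E2 (-1.53) lower. Of 19 genes for mannose 6-phosphate tagging and sorting, AP1M2, the epithelial subunit of the AP-1 adaptor, was called higher and GNPTAB and VPS29 lower. GNPTAB, which encodes the transferase that starts the mannose 6-phosphate tag, was 8.74, 11.2 and 15.97 TPM in the SMAD4-low set and 29.8, 39.6 and 51.2 TPM in the SMAD4-high set. The sets did not overlap (log2 fold change -1.73, SE 0.10, adjusted p 3.1e-15). VPS29, a subunit of the retromer complex that recycles sorting receptors, was at -1.18 (SE 0.078). Of 22 tested genes in MiT/TFE and mTORC1 control, GPNMB (3.49), RRAGD (1.77) and TSC1 (1.14) were called higher, and FNIP2 (-2.17) and RHEB (-1.18), an activator of mTORC1, lower. The share called was 14.3% for V-ATPase, 15.8% for sorting genes and 22.7% for MiT/TFE and mTORC1 control, each under the 39.0% of all genes. The median log2 fold change was 0.49 for other hydrolases, 0.21 for other membrane proteins, 0.014 for V-ATPase, -0.079 for sorting genes and -0.36 for MiT/TFE and mTORC1 control.

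Of the cystatins, the inhibitors of cysteine cathepsins, 5 of 8 were tested, and CSTA, CST6, CST1 and CST3 were called higher. CSTA, CST6 and CST1 had medians of 0.392, 0.0592 and 0.0936 TPM in the SMAD4-high set and passed the filter on low counts through the SMAD4-low set, so they could only be called higher and their number is no result about cystatins. With a filter of 1 CPM in 12 libraries, 2 cystatins were called in place of 4. CSTB, a cytosolic inhibitor measured well in both sets, was not called (log2 fold change -0.0031, SE 0.15). CSTA, a cytosolic inhibitor of keratinocytes and other epithelia, was 139 to 281 TPM in the SMAD4-low set and 0 to 10.5 TPM in the SMAD4-high set (log2 fold change 7.32, SE 0.53). The secreted CST6 and CST1 were higher at 4.12 and 4.03, with overlap, and CST1 shares most of its sequence with other cystatin genes, so its reads are uncertain. CST3, the abundant secreted cystatin C, is named after its values were seen. It was 540.4, 776 and 1522 TPM against 167, 229 and 357 TPM, without overlap (log2 fold change 1.89, SE 0.16, adjusted p 1.3e-11).

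Summed over the 40 members, TPM overlapped between the sets. The sum was 4514, 5847 and 7653 TPM in the SMAD4-low set and 3953, 5088 and 6277 TPM in the SMAD4-high set, with means of 5819 ± 975 (SD, n = 12) and 5109 ± 691 (SD, n = 14). With PSAP added, the SMAD4-high set was at 5149, 7111 and 9865 TPM. GRN made up 8.07 to 19.6% of the members' TPM in the SMAD4-low set and 2.51 to 3.82% in the SMAD4-high set, whereas CTSD made up 4.54 to 12.8% and 10.3 to 31.8%. TPM is a share of each library's total. Mitochondrial transcripts took 3.82 to 11.9% of it in the SMAD4-low and 1.37 to 6.24% in the SMAD4-high set, and their part in the sums was not tested.

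**Figure D4:**
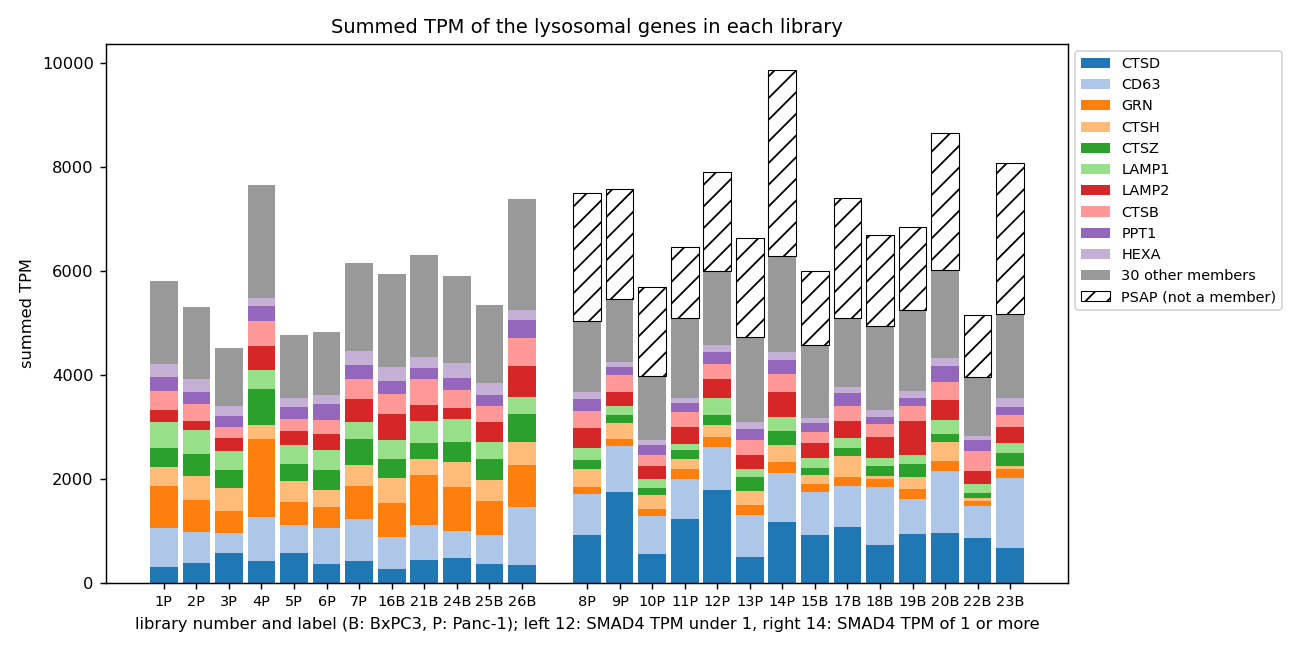
Summed TPM per library, stacked by 10 abundant members, the 30 others and PSAP, with SMAD4-low libraries left and SMAD4-high libraries right, numbered and marked by label. The hatched PSAP part is present in the right block only, GRN (orange) is wider in the left block, and CTSD (bottom) is taller in most libraries of the right block.

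Lysosomal genes varied among the libraries of one set. The SD of log2(TPM + 1) across libraries had a median of 0.34 over 36 members with a mean of at least 5 TPM in the SMAD4-low set and of 0.37 over 36 in the SMAD4-high set. Over all genes with that mean the median SD was 0.27 and 0.26, and 25 and 34 of the 36 members lay above it. Counting alone gives a median SD of 0.028 in the SMAD4-low and 0.03 in the SMAD4-high set. All 36 members in each set had an SD among libraries over 2 times that of counting, as had 98.0% and 98.3% of all genes with that mean. No clone was sequenced again, so variation among clones and among repeated libraries cannot be told apart. The largest SDs in the SMAD4-low set were those of GAA (0.83), CTSL (0.77) and CTSS (0.69), and in the SMAD4-high set those of NEU1 (0.95), CTSH (0.95) and CTSV (0.90). NEU1 ran from 2.62 TPM in library 15 to 32.7 TPM in library 8, a range of 12.5-fold. CTSH ran from 58.3 to 417 TPM, and libraries 18, 22 and 23 lay at 63.5, 58.3 and 71.9 TPM, below the 11 others.

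Single libraries held many of the extremes. Library 22, labelled BxPC3, had the lowest TPM of the SMAD4-high set for 17 of 39 members and for PSAP, beside 11.5% of all genes tested. Library 14, labelled Panc-1, was highest for 9 members and for PSAP, beside 10.2% of all genes. In the SMAD4-low set, library 26 was highest for 10 members (5.11% of all genes) and library 3 lowest for 11 (8.25% of all genes). Total counts were 30070366 for library 22 and 29459135 for library 14, near the median of all libraries. Without library 22, 17 members were called between the SMAD4 sets.

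Within the SMAD4-high set, where PSAP has counts, no member had a relation with PSAP that passed adjustment over all genes. Correlations on log2(TPM + 1) were tested by two-sided permutation (100000 permutations, n = 14) for 13267 genes with a median of at least 1 TPM in the set, 39 members among them. The lowest adjusted permutation p of a member was 0.36 by Pearson's r and 0.401 by Spearman's rho, and none of the 13267 genes passed either (lowest 0.265 and 0.378). At an unadjusted permutation p under 0.05 there were 13 members, all with a positive r, beside 9.84% of all genes (5.94% with a positive r). The median r was 0.32 over the members and 0.047 over all genes. The members with the lowest unadjusted permutation p were GLB1 (r = 0.79), SCARB2 (r = 0.77), HEXA (r = 0.76), NEU1 (r = 0.73) and TPP1 (r = 0.68), with permutation p of 0.00107, 0.00115, 0.00205, 0.00351 and 0.00618 in that order. Spearman's rho was 0.75, 0.67, 0.75, 0.73 and 0.56. Without libraries 14 and 22, the farthest from the PSAP median, r was 0.65, 0.58, 0.67, 0.74 and 0.32, and 8 members had an unadjusted permutation p under 0.05 (n = 12), 7 of them with a positive r, beside 8.63% of all genes. The median r of the members was then 0.11. Within the labels, with n = 7 each, r was 0.89, 0.88, 0.85, 0.61 and 0.67 in the libraries labelled BxPC3 and 0.66, 0.64, 0.67, 0.84 and 0.69 in those labelled Panc-1. TFEB was the member with a negative r at an unadjusted permutation p under 0.05 without libraries 14 and 22. Its r was then -0.71 (permutation p 0.00731, adjusted over all genes 0.44), and -0.17 with all 14 libraries. PSAP itself had r = 0.40 with total counts and r = 0.16 with the mitochondrial share over the same 14 libraries. Among its partners, r was 0.67 for ASAH1, 0.62 for ARSA, 0.50 for GALC, 0.43 for GRN, 0.08 for CTSD and 0.01 for GLA, with rho of 0.61, 0.53, 0.38, 0.18, 0.08 and -0.02. Without libraries 14 and 22 (n = 12), r of these partners was 0.41, 0.13, -0.058, -0.23, -0.057 and 0.20 in that order.

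**Figure D5:**
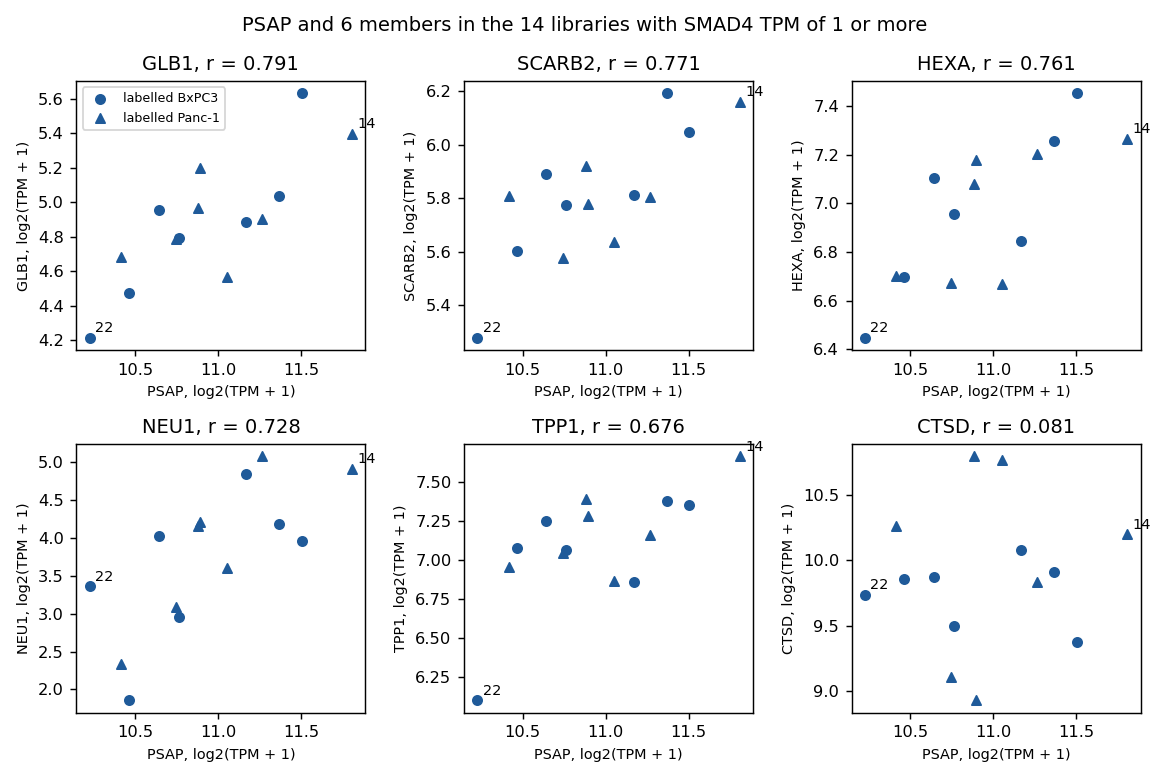
PSAP against 6 members on log2(TPM + 1) in the 14 SMAD4-high libraries, with libraries 14 and 22 numbered and markers by label. GLB1, SCARB2, HEXA, NEU1 and TPP1 rise from library 22 toward library 14, whereas CTSD (r = 0.081) shows no such slope.

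By label the members did not separate. No member was called between the libraries labelled Panc-1 and those labelled BxPC3 with edgeR, DESeq2 or limma. Over all 16008 genes edgeR and limma called none (0%) and DESeq2 called 1 (0.00625%), MYH16, which is named after its values were seen and is no member. At an unadjusted p under 0.05 edgeR had 2 members, CTSC (log2 fold change -0.50, Panc-1 over BxPC3 labels) and CTSV (-0.81), beside 2.29% of all genes, and the lowest adjusted p among members was 1.00. Each label is a mixture of both SMAD4 sets, so such a comparison can show little of the lines. No member passed the interaction test of the SMAD4 difference with the label (edgeR, adjusted p under 0.05 for 0 members and 0% of 17456 genes, lowest 0.56 for TFEB). At an unadjusted p under 0.05 there were 4 members, CTSF, GAA, GALC and TFEB, beside 7.77% of all genes. limma gave 0 members as well, with 4 members at an unadjusted p under 0.05. A p that misses the threshold does not show that the labels are alike.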

How the data were processed

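Messenger RNA was selected by poly-A, and strand-specific libraries of 26 SCDCLs were sequenced from both ends. The authors quantified transcripts with kallisto 0.46.1 against the Ensembl GRCh38 transcriptome. The deposited table, made with tximport, gives TPM for 41078 genes, and the authors' estimated counts (expected counts, scaled from TPM and mean transcript length to the library total and not normalized between libraries). It also holds 30 repeat quantification runs per library, which were not used here. Counting and assignment of reads limit the precision of genes with few counts.

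Groups were taken from the labels, and the sets from SMAD4 TPM under 1 or not. The members and all lists were chosen with earlier results of these data known. Estimated counts were rounded and tested with edgeR 4.0.16 (TMM, filterByExpr, quasi-likelihood test, Benjamini-Hochberg adjustment over all genes tested), and a call needed both an adjusted p below 0.05 and a log2 fold change of more than 1 in size. The study's program, sleuth, was not used here. The named genes were all members, PSAP and its partners, and up to 3 called genes of each other list with the largest fold in each direction. Alternatives were DESeq2 1.42.0, limma 3.58.1 on log2(TPM + 1), other size factors, filters, pseudocounts of 0.1 and 5, the label or set as a covariate, each label alone, no fold threshold and each library left out in turn. A pseudocount of 1 was added before log2. Coordinates came from GENCODE 44 and promoter windows from RefSeq (GRCh38.p14). The closest pair of libraries differed by more than sampling noise (chi-square of 44.9 per gene), so none was counted as a duplicate. The edgeR fits were tested on simulated data. Python 3.11.15 and R 4.3.3 were used. Response to gemcitabine was not analysed here, and 1 further gene of the saposin list is not reported here. Relations with PSAP were planned with adjustment over the members and are reported with adjustment over all genes.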

Additional observations from a re-analysis of the deposited data

How the results depend on the processing

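The number of members called between the SMAD4 sets was 15 to 19 under DESeq2, limma, other size factors and filters, the label as a covariate and either label alone, and 16 to 20 with 1 library left out (8 to 11 higher and 8 to 9 lower), beside 17. With the adjusted p alone it was 30, of which 17 were higher and 13 lower, because the fold threshold was removed. In the libraries labelled BxPC3 alone 5 members were called lower in place of 8, and the cause was not tested. The members with a PSAP relation were 5 when p was adjusted over the members alone, 4 on CPM and 0 without libraries 14 and 22. There were 0 with adjustment over all genes, an alternative chosen after seeing the data. An unadjusted permutation p under 0.05 was held by 33.3% of the members and 9.84% of all genes. V-ATPase calls were 5 in place of 3 with no filter, and cystatin calls 2 in place of 4 with a filter of 1 CPM in 12 libraries. Of the members whose difference did not pass the test, 6 changed sign under an alternative. In the libraries labelled BxPC3 alone CTSK was at 0.047, LAMP2 at 0.11 and GAA at 0.18 on the log2 scale. In those labelled Panc-1 alone MCOLN1 was at -0.0029, GUSB at -0.045 and IDUA at -0.18. LAMP2 was at 0.0048 with DESeq2 and with median-of-ratios factors. With the library total alone MCOLN1 was at -0.0094 and GUSB at -0.0088, and with no filter at -0.0092 and -0.0098. TFEB was called by edgeR but stood at -0.90 with limma. CTSV passed the fold threshold with the library total alone (-1.01) and with no filter (-1.02). By label, the count of members called stayed at 0 under each alternative and with each library left out, and the interaction count at 0 under limma and no filter. The median difference of the members on log2(TPM + 1) was 0.038, and 0.028 to 0.046 under other pseudocounts, CPM and no filter. No paired analysis was possible because the labels give the groups no shared replicate numbers.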
